A study of Ovis aries with 7 samples.

Results

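The genes described here write and read methylation of lysine 9 of histone H3 (H3K9), the mark of heterochromatin. They are the methyltransferases SUV39H1, SUV39H2, SETDB1, EHMT1 and EHMT2, the SETDB1 partners TRIM28 and ATF7IP, and the heterochromatin proteins CBX1, CBX3 and CBX5. The genes were chosen by symbol, and all 10 have a row among the 31304 rows of the expression table, of which 16526 carry a gene symbol. Polyadenylated RNA of 8-cell embryos of the sheep, Ovis aries, was sequenced with Smart-seq2, a method for very small RNA inputs. The design has 4 samples of cloned embryos, obtained by moving a somatic nucleus into an enucleated egg (somatic cell nuclear transfer, SCNT), and 3 samples of embryos obtained by in vitro fertilization (IVF). The labels name no breed, donor cell, sex or number of embryos per library for either group. Columns of the table could be tied to samples by name for the IVF group alone, and 4 columns whose name matches none of the labels were left aside. The SCNT group was thus not analysed here and no SCNT difference is given, so every value below belongs to the IVF libraries, replicates 1, 2 and 3 in that order.

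Methylated H3K9 is bound by the chromodomain of the HP1 proteins, which compact chromatin and bring in more methyltransferase, so that the mark can spread and persist through cell division. SUV39H1 and SUV39H2 trimethylate H3K9 mainly at repeats around centromeres, SETDB1 does so at transposable elements, and the EHMT1 and EHMT2 pair places mono- and dimethylation in gene-rich chromatin. In mouse nuclear transfer, H3K9 trimethylation carried over from the somatic nucleus is known as a barrier to activation of the embryonic genome, and Suv39h enzymes are among those that place it.

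Values are TPM (the usual length- and library-scaled transcript abundance), so levels of different genes are compared per length. Each library sums to 1000000 TPM. Sequencing depth is unknown, since TPM keeps none, and no interval or detection floor can be given. In such samples fewer cells and less RNA per cell cannot be told apart. The markers checked bear on embryo or oocyte RNA against somatic cells, not on how the embryos were made. All 8 embryo and oocyte markers, among them ZSCAN4 and KPNA7, had at least 1 TPM in every library, with summed levels of 1963 to 2788 TPM. Of 8 fibroblast markers 1 did (VIM), with sums of 10.1 to 15.0 TPM and POSTN listed at 0 throughout. Of 8 cumulus and granulosa markers 1 did (HAS2), with sums of 9.60 to 16.5 TPM and PTX3 and FOXL2 listed at 0 throughout.

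Transcripts of the H3K9 system were present at very uneven levels. The readers CBX3 and CBX5 were highest, TRIM28, ATF7IP, SETDB1 and CBX1 followed, and the writers other than SETDB1 were lowest. At 1 TPM or more in all 3 libraries were 9 of the 10 genes, SUV39H2 being the exception, beside 49% of the 16526 symbol rows. A mean level of 10 TPM was reached or passed by 6 genes, beside 25.7% of symbol rows. The median gene of the 10 had a mean of 15.6 TPM and the median symbol row 1.58 TPM. The set was chosen with earlier results known, so these shares describe it and test nothing.

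**Figure D1:**
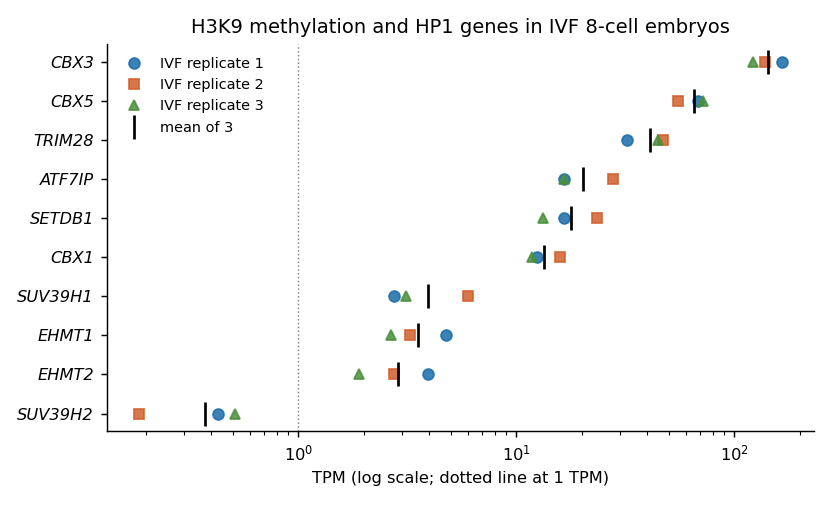
TPM (log axis) of the 10 genes in each IVF library, ordered by mean; coloured symbols are libraries, black ticks the mean of 3 and the dotted line marks 1 TPM. CBX3 lies highest at 122 to 166 TPM, 5 further genes lie above 10 TPM, and only SUV39H2 lies below the line.

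Among the readers, CBX3 (HP1 gamma), which is also found in the bodies of active genes, was the most abundant of all 10. CBX3 had 166, 139 and 122 TPM in the 3 libraries, a mean of 143 ± 22.1 TPM (SD, n = 3), and ranked 728 among symbol rows. CBX5 (HP1 alpha), typical of compact heterochromatin around centromeres, had 68.4, 55.1 and 72.1 TPM, a mean of 65.2 ± 8.92 TPM (SD, n = 3). CBX1 (HP1 beta), found in both kinds of chromatin, was the least abundant of the 3 at 12.5, 15.8 and 11.9 TPM, a mean of 13.4 ± 2.12 TPM (SD, n = 3). The ranges of the HP1 genes did not overlap, and their order was the same in every library. Human CBX3 has processed pseudogenes, and no source used here says how reads shared with such copies in sheep were assigned.

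The HP1 genes summed to 247, 210 and 206 TPM. CBX3 made up 67.3, 66.2 and 59.3% of that sum, CBX5 27.7, 26.3 and 34.9%, and CBX1 5.06, 7.53 and 5.74%. CBX3 thus held the majority in each library, and the balance shifted toward CBX5 in replicate 3. Within libraries CBX3 exceeded CBX1 by 3.32 ± 0.29 and CBX5 by 1.11 ± 0.31 on the log2(TPM + 1) scale (SD, n = 3), both in 3 of 3 libraries. The TPM of CBX3 was 8.79 to 13.3 times that of CBX1, and the TPM of CBX5 was 3.49 to 6.08 times that of CBX1. With 3 libraries of a single kind, the exact sign-flip test (two-sided) of any such difference can reach no p below 0.25, so differences here are set only against their spread.

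Of the 5 methyltransferase genes described, SETDB1 was the highest in every library. SETDB1 had 16.6, 23.6 and 13.3 TPM, a mean of 17.8 ± 5.26 TPM (SD, n = 3). SUV39H1 had 2.75, 5.99 and 3.13 TPM, a mean of 3.96 ± 1.77 TPM (SD, n = 3), with replicate 2 above the other libraries. Both genes were highest in replicate 2, while their ranges lay well apart.

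EHMT1 (GLP) and EHMT2 (G9a), whose proteins act as a heterodimer, were close to each other. EHMT1 had 4.76, 3.26 and 2.67 TPM (mean 3.56 ± 1.08, SD, n = 3) and EHMT2 had 3.93, 2.74 and 1.90 TPM (mean 2.86 ± 1.02, SD, n = 3). Both were highest in replicate 1 and lowest in replicate 3, and their ranges overlapped. Within libraries EHMT2 lay below EHMT1 in 3 of 3, by a log2(TPM + 1) difference of -0.25 ± 0.08 (SD, n = 3), and at 0.710 to 0.843 times its TPM.

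SUV39H2, the paralog known in mouse for expression in the germ line and embryo, was the lowest of the 10 genes. It had 0.430, 0.186 and 0.511 TPM, a mean of 0.375 ± 0.169 TPM (SD, n = 3). Its log2(TPM + 1) difference from SUV39H1 was -1.80 ± 0.66 (SD, n = 3), negative in 3 of 3 libraries, and its TPM was 0.0310 to 0.163 times that of SUV39H1. In the gene table of the ARS-UI_Ramb_v3.0 assembly SUV39H2 overlaps DCLRE1C, a DNA repair nuclease gene, which itself stood at 0.980 ± 0.304 TPM (SD, n = 3). Whether reads shared by overlapping genes were counted for either gene is not given, so the low level of SUV39H2 is uncertain.

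The methyltransferase genes together summed to 28.4, 35.8 and 21.5 TPM. SETDB1 made up 58.3, 65.9 and 61.8% of that sum, a mean of 62.0 ± 3.84% (SD, n = 3). SUV39H1 averaged 13.7 ± 3.64%, EHMT1 12.8 ± 3.83%, EHMT2 10.1 ± 3.26% and SUV39H2 1.47 ± 0.928% (SD, n = 3 each). SETDB1 held the majority in every library. The share of EHMT1 was 16.7, 9.10 and 12.4%, above that of EHMT2 at 13.8, 7.67 and 8.81% in each library. SUV39H1, at 9.66, 16.8 and 14.6%, lay below both in replicate 1 and above both in the other libraries. On the log2(TPM + 1) scale SETDB1 exceeded EHMT2 by 2.28 ± 0.44 and SUV39H2 by 3.75 ± 0.58 (SD, n = 3), each in 3 of 3 libraries. The summed TPM of the HP1 genes was 8.69, 5.87 and 9.59 times that of the methyltransferase genes, lowest in replicate 2, where the methyltransferase sum was highest.

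**Figure D2:**
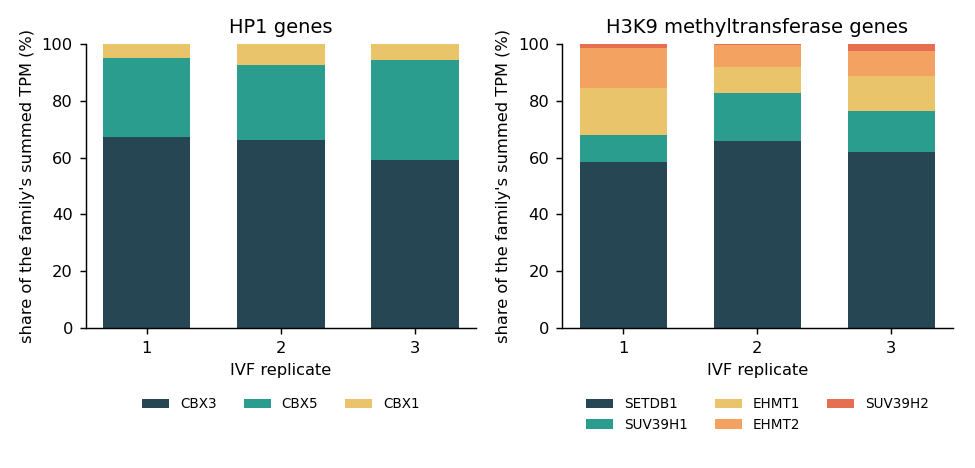
Share (%) of each gene in the summed TPM of the HP1 genes (left) and of the H3K9 methyltransferase genes (right), 1 bar per IVF library. CBX3 takes 59.3 to 67.3% of its family and SETDB1 58.3 to 65.9% of its own, while SUV39H2 is the thin segment at the top.

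The partners that bring SETDB1 to chromatin and stabilise it were at or above its own level. TRIM28 (KAP1), the corepressor that links KRAB zinc finger proteins to SETDB1 and HP1, had 32.2, 47.1 and 44.6 TPM, a mean of 41.3 ± 7.96 TPM (SD, n = 3). It exceeded SETDB1 by 1.19 ± 0.42 on the log2(TPM + 1) scale (SD, n = 3), in 3 of 3 libraries, and its range lay above that of SETDB1. ATF7IP, which binds SETDB1 and protects it from degradation, had 16.5, 27.8 and 16.5 TPM, a mean of 20.3 ± 6.52 TPM (SD, n = 3). ATF7IP and SETDB1 were nearly equal: their log2(TPM + 1) difference was 0.17 ± 0.16 (SD, n = 3), positive in 2 of 3 libraries, with TPM ratios of 0.997, 1.18 and 1.24 from the lowest library to the highest. SETDB1 overlaps the ceramide synthase gene CERS2 in the same gene table, and CERS2 was at 12.1 ± 3.57 TPM (SD, n = 3). How reads shared by these genes were counted is not given, so the level and share of SETDB1 are uncertain on that account too.

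**Figure D3:**
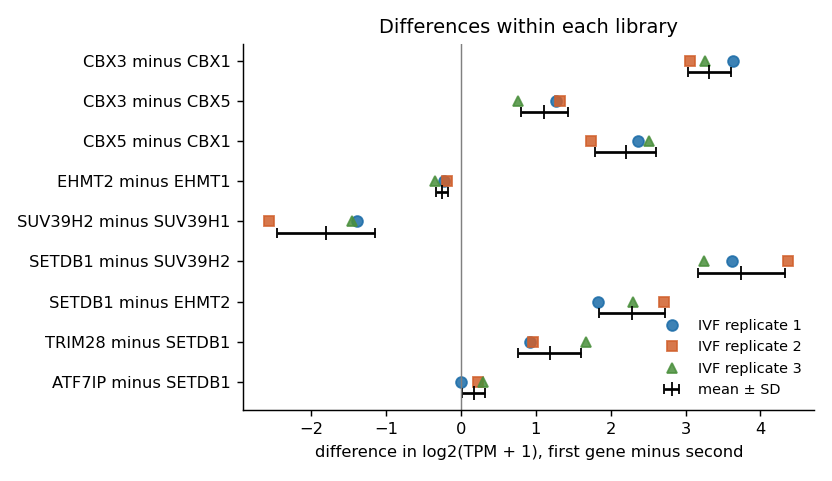
Difference in log2(TPM + 1), first gene minus second, within each IVF library (coloured symbols), with the mean ± SD of 3 libraries in black below them. Among the pairs, only ATF7IP minus SETDB1 has libraries on both sides of 0; EHMT2 minus EHMT1 lies near 0 at -0.25 and SUV39H2 minus SUV39H1 at -1.80.

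Ordered by mean TPM the genes ran CBX3, CBX5, TRIM28, ATF7IP, SETDB1, CBX1, SUV39H1, EHMT1, EHMT2 and SUV39H2. Of the 9 neighbouring pairs in that order, 7 had the same order in every library and 5 had ranges that did not overlap. Ranges lay apart for CBX3 and CBX5, CBX5 and TRIM28, TRIM28 and ATF7IP, CBX1 and SUV39H1, and EHMT2 and SUV39H2. The step from CBX5 to TRIM28 was small in replicate 2, at 0.22 on the log2(TPM + 1) scale. With median-of-ratios scaling the ranges of CBX5 and TRIM28 overlapped, the lowest CBX5 value being 48.1 and the highest TRIM28 value 49.0 scaled TPM. SUV39H1 and EHMT1 did not differ beyond their spread, with a log2(TPM + 1) difference of 0.09 ± 0.67 (SD, n = 3) that changed sign between libraries. The order of ATF7IP and SETDB1 also changed between libraries.

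By the ratio of highest to lowest TPM, the 6 more abundant genes varied less between IVF libraries than the other 4. The margin was narrow, with SETDB1 at 1.77 and EHMT1 at 1.78. For the 6 genes that averaged 5 TPM or more, the log2(TPM + 1) value in a library differed from the mean of the other libraries by -0.54 (SETDB1 in replicate 3) to 0.72 (ATF7IP in replicate 2). None of the 6 was at least 2-fold away in any library. Among 5765 symbol rows above the same filter, 5.95% stood 2-fold or more above the other libraries in replicate 1 and 5.36% stood as far below. The corresponding shares were 10.4% and 3.8% in replicate 2, and 0.416% and 1.87% in replicate 3. With such shares, a count of 0 among 6 genes is near the background. The median ratio of highest to lowest library was 1.41 over the 6 genes and 1.71 over those symbol rows. The other 4 genes fell below the filter. Their ratios were 2.18 for SUV39H1, 1.78 for EHMT1, 2.07 for EHMT2 and 2.75 for SUV39H2. On the log2(TPM + 1) scale no such split was seen. The largest difference was 0.54 for EHMT1 and 0.58 for EHMT2 in replicate 1, below the 0.72 of ATF7IP. It was -0.31 for SUV39H2 and 0.83 for SUV39H1 in replicate 2.

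Replicate 2 held the highest value of 5 of the 9 genes that averaged 1 TPM or more, namely SUV39H1, SETDB1, TRIM28, ATF7IP and CBX1. With median-of-ratios scaling TRIM28 was highest in replicate 3 instead, at 32.8, 41.1 and 49.0 scaled TPM. Replicate 2 was also highest for 48.5% of 9190 symbol rows with such a mean in the TPM as deposited, so the count is near the background. Replicate 1 was highest for CBX3, EHMT1 and EHMT2, and for 35.8% of the rows. Replicate 3 was highest for CBX5 among these 9, and for 15.7% of the rows. The median symbol row above 5 TPM lay 0.16 higher in replicate 2 than in the other libraries on the log2(TPM + 1) scale, beside 0.72 for ATF7IP, 0.63 for SETDB1, 0.35 for CBX1, 0.31 for TRIM28, -0.04 for CBX3 and -0.34 for CBX5. Of the 6 genes above that filter, 4 thus lay above the median row in replicate 2 and CBX3 and CBX5 below it.

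Rows whose values were most like those of 3 of the genes were found by root-mean-square distance in log2(TPM + 1) over the 3 libraries. Nearest to CBX3 were PBK, DBF4 and GPCPD1, at distances of 0.096, 0.11 and 0.13. SETDB1 was nearest to PAK2, PRIM1 and PIK3C2A, at 0.039, 0.040 and 0.053, and SUV39H1 to MED17, RING1 and ZFP90, at 0.027, 0.047 and 0.053. PRIM1, for instance, had 16.3, 24.6 and 13.6 TPM. With only 3 libraries, such closeness reflects level as much as pattern.

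Other genes of H3K9 methylation and heterochromatin formed 6 lists, and 51 of their 65 measured genes were detected, that is, at 1 TPM or more throughout, beside the 49% of all symbol rows. Among other writers and their partners this held for 10 of 14 genes, with a median mean of 7.42 TPM. The chromodomain corepressor CDYL led at 85.3 ± 25.6 TPM, followed by UHRF1, which binds methylated H3K9 and hemimethylated DNA, at 42.3 ± 7.22 TPM, and the methyltransferase gene PRDM2 at 21.4 ± 2.52 TPM (SD, n = 3 each). PRDM2 had 20.3, 24.3 and 19.7 TPM, above SETDB1 in each library. CDYL2 was the lowest above 0 at 0.165 ± 0.121 TPM (SD, n = 3), and PRDM16 was listed at 0 in all libraries. SETDB2, the paralog of SETDB1 and named after its values were seen, had 22.1, 8.61 and 11.7 TPM. SETDB2 was above SETDB1 in replicate 1 and below it in the other libraries.

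All 5 genes of the HUSH complex and its effectors, which silence transposons together with SETDB1, were detected in every library, beside 49% of all symbol rows. Their median mean was 9.70 TPM. PPHLN1 had 102 ± 16.8 TPM, the H3K9 methylation reader MPHOSPH8 21.8 ± 2.98 TPM, TASOR 9.70 ± 3.69 TPM and TASOR2, the lowest, 2.34 ± 0.457 TPM (SD, n = 3 each). Of the TRIM28 partners and relatives, 11 of 14 were detected in every library, beside the same 49%, with a median mean of 6.25 TPM. The count was 4 at a threshold of 5 TPM, where no share of all symbol rows was computed. SUMO2, which encodes a modifier attached to TRIM28, had 2171 ± 406 TPM and the deacetylase gene HDAC2 269.9 ± 40.4 TPM (SD, n = 3 each). HDAC1, a further deacetylase gene, had 32.6 ± 14.9 TPM (SD, n = 3). CHD3, a remodeller bound by TRIM28, was lowest at 0.107 ± 0.163 TPM (SD, n = 3).

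Of 12 measured genes listed under removal of H3K9 methylation, 7 were detected in every library, near the 49% of all symbol rows. Whether the protein of each listed gene, RIOX1 and RIOX2 included, removes this mark was not tested. Their median mean was 2.96 TPM, beside 1.58 TPM for the median symbol row. The count was 11 at a threshold of 0.5 TPM and 4 at 5 TPM. No share of all symbol rows was computed at those thresholds. The highest were the JmjC oxygenase gene RIOX2 at 52.1 ± 7.2 TPM, the amine oxidase gene KDM1A at 29.8 ± 17.2 TPM and KDM3A, which acts on mono- and dimethylated H3K9, at 13.8 ± 4.75 TPM (SD, n = 3 each). PHF2 was lowest at 0.782 ± 0.695 TPM (SD, n = 3). Of the KDM4 enzymes, which act on trimethylated H3K9 and are named here after their values were seen, KDM4A had 11.9, 13.5 and 14.0 TPM, KDM4B 1.10, 0.718 and 1.40 TPM, and KDM4C 0.639, 1.92 and 0.742 TPM. KDM4A thus lay above KDM4B and KDM4C in every library. The 12 genes of this list summed to 114, 157 and 112 TPM, 3.99, 4.39 and 5.19 times the sum of the 5 methyltransferase genes. RIOX2 alone gave 59.9, 50.4 and 45.8 TPM of these sums. PRDM2 and SETDB2, placed above among other writers, are not in the methyltransferase sum. The ratios thus compare lists of unequal size and do not weigh removal of the mark against its writing.

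Of the genes that assemble and maintain heterochromatin, 16 of 16 were detected in every library, beside 49% of all symbol rows. Their median mean was 16.5 TPM. LRIF1, whose protein binds HP1, averaged 47.2 ± 31.4 TPM and was uneven, with 24.5, 83.0 and 34.0 TPM. The remodeller gene SMARCAD1 had 38.5 ± 13.5 TPM, the maintenance DNA methyltransferase gene DNMT1 33.1 ± 5.36 TPM and the nuclear lamina gene LMNB1, the lowest, 3.44 ± 1.08 TPM (SD, n = 3 each). The chromodomains of the CBX genes of Polycomb bind methylated lysine 27 of H3 instead. Of 4 such genes, 2 were detected in every library, near the share of all symbol rows. None passed a threshold of 5 TPM, where no such share was computed. Their median mean was 3.07 TPM. CBX6 had 6.50 ± 2.54 TPM, CBX8 5.39 ± 2.38 TPM, CBX7 0.750 ± 0.176 TPM and CBX2, the lowest of these, 0.618 ± 0.178 TPM (SD, n = 3 each).

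**Figure D4:**
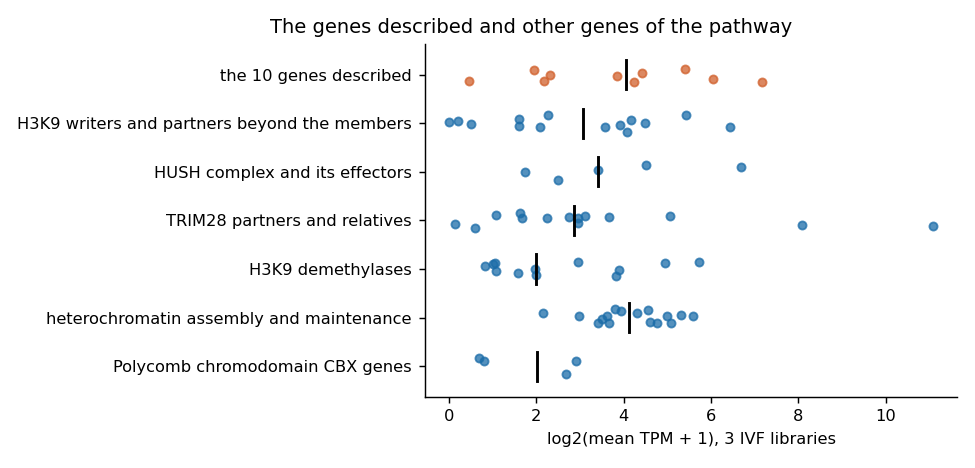
Mean level over the 3 IVF libraries, as log2(mean TPM + 1), of the 10 genes described (orange) and of the 6 lists (blue); each point is a gene and the black bar is the median. The median gene lies at 15.6 TPM among the 10, at 16.5 TPM among assembly and maintenance genes and at 2.96 TPM in the H3K9 demethylase list.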

How the data were processed

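Amplification took 20 PCR cycles and reads were paired, 150 nucleotides each, per the labels' protocols. The submitters' processing notes name fastp 0.23.4 and HISAT2 2.2.1. No source used here gives the sheep build, annotation, strand setting or counting tool. The authors deposited TPM for 31304 rows. Of 7 columns of values, 3 match the titles of IVF samples, and 4, whose names fit none of the labels, were left aside. The planned comparison of SCNT with IVF by limma was therefore not made.

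Rows named neither by a LOC identifier, a tRNA nor a mitochondrial locus tag are symbol rows (16526). Detection means 1 TPM or more in all 3 libraries. Differences are on log2(TPM + 1), which understates those of low genes. Libraries were compared over rows averaging 5 TPM or more. That step was run on simulated data as a check of the code only. How many true 2-fold changes it would find in these libraries is unknown. The labels do not say whether replicates are separate embryo batches, so the spread may be technical. The genes and lists were chosen with earlier results of these data known. In each list the 3 highest genes, the lowest above 0 and those at 0 are named. For CBX3, SETDB1 and SUV39H1 the 3 nearest rows are named, and any other gene is named as chosen after its values were seen or as a marker or overlapping gene. PRDM9 and KDM4D were not analysed here. A few other list genes are not reported here, and list counts leave them out. Protein sequences, planned for description, were not used here. Gene names and overlaps came from the ARS-UI_Ramb_v3.0 table, which held all 10 genes and whose build may differ, so no coordinates are given. Alternatives were other detection thresholds, pseudocounts, filters and scalings, and leaving out each library. Python 3.11.15, numpy 2.4.6, pandas 2.3.3 and matplotlib 3.10.9 were used.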

Additional observations from a re-analysis of the deposited data

How the results depend on the processing

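No paired analysis was possible because only IVF libraries entered, and the alternatives planned for SCNT against IVF were not run. With all libraries kept, 82 values were recomputed under other settings: 65 stayed within 1 SD of the libraries (counts within 1.5 times), 17 moved further and none changed sign. Leaving out mitochondrial and ribosomal protein rows rescales all other rows upward. Mean levels that moved under it were 172 TPM for CBX3, 78.6 for CBX5, 50.0 for TRIM28 and 16.2 for CBX1. As its construction sets, a pseudocount of 5 lowered the log2 differences to 3.00 for CBX3 minus CBX1, 1.52 for SETDB1 minus EHMT2, 2.06 for SETDB1 minus SUV39H2, -0.72 for SUV39H2 minus SUV39H1 and -0.12 for EHMT2 minus EHMT1. A pseudocount of 0.1 raised their size to 5.27 for SETDB1 minus SUV39H2 and -3.08 for SUV39H2 minus SUV39H1. A threshold of 5 TPM left 32 of the 51 listed pathway genes detected, with the HUSH list at 3 of 5, TRIM28 partners at 4 of 14, demethylases at 4 of 12 and Polycomb CBX genes at 0 of 4, fewer genes passing by construction. At 0.5 TPM 11 genes of the demethylase list passed. The share of all symbol rows was computed at 1 TPM only, so counts at 0.5 and 5 TPM have no background beside them. With a library left out, 7 to 9 of the 9 neighbouring pairs had the same order in each remaining library. CBX3 then kept 62.8 to 66.7% of the HP1 sum, and SETDB1 60.0 to 63.9% of the sum of the 5 methyltransferase genes. The ratio of HP1 to methyltransferase sums was 7.28 to 9.14. Median-of-ratios scaling shifted replicate 2 by -0.20 and replicate 3 by 0.14 (log2). TPM hides depth, so sampling loss at low values cannot be judged.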
